A study of Mus musculus with 12 samples.

Results

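Basophils and mast cells were examined in the livers of neonatal C57BL6/J mice, 6 naive controls and 6 with phlebotomy-induced anemia (PIA). A barcode was taken as a cell when it held 500 to 50000 unique molecular identifiers (UMIs, each of which counts 1 captured mRNA molecule) with at most 20% of them mitochondrial. Such a kept cell was taken as a basophil or mast cell when it held at least 3 UMIs over Mcpt8, Prss34, Cpa3 and Ms4a2, none of the B cell gene Cd79a, the T cell gene Cd3e or the sinusoidal endothelial gene Stab2, at most 1 of the macrophage genes C1qa, C1qb and C1qc, and at most 1 of the platelet gene Pf4 and the granulocyte progenitor genes Elane and Mpo. Of 202557 kept cells, 432 met the rule (0.213%), 256 in control and 176 in anemic livers, with 31 to 62 in each control mouse and 18 to 41 in each anemic mouse. A further 123 cells reached the 3 UMIs and were left out for the other genes. At the border, 66 of the 432 cells had exactly 3 UMIs of the 4 genes, and 69 cells just outside had 2.

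Blood was drawn from the facial vein of the anemic pups on postnatal days 2, 4, 6, 8 and 10 at 20 µL per g of body weight, while control pups received a daily needle stick without blood loss, and livers were collected on day 11. Whole livers were dissociated with enzymes, and every mouse gave its own droplet-based single-cell library, so the mouse was the replicate. By the RNA of Xist and of Y-linked genes, 4 control and 2 anemic mice were female and the others were male. Libraries held 46252146 to 65960679 UMIs in control and 52021617 to 74545930 in anemic mice, and the basophils and mast cells contributed 60608 to 107095 and 42766 to 95503 of them. Their median depth was 1282 to 1636 UMIs per cell in control and 1624 to 2199 in anemic mice, where all kept cells had medians of 2099 to 2414 and 1776 to 2909. Of the kept cells, 4.77% had a barcode that occurred in more than 1 library. That held for 24 of the 432 cells (5.56%), and no barcode was a basophil or mast cell in more than 1 library.

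Basophils and mast cells are granulocytes of allergic and parasite immunity that carry the high-affinity IgE receptor. Antigen that crosslinks IgE on this receptor makes them release stored histamine and proteases, and they then produce lipid mediators and cytokines such as IL-4 and IL-13. Basophils mature in hematopoietic tissue, which in the newborn mouse includes the liver, and circulate in blood. Mast cells leave as precursors and mature in tissue, where stem cell factor, the ligand of Kit, keeps them alive. In the mouse, the serine proteases Mcpt8 and Prss34 are basophil products, whereas the chymases Cma1 and Mcpt4 and the tryptases Tpsb2 and Tpsab1 are stored in the granules of connective tissue mast cells. Cpa3, a carboxypeptidase, and Ms4a2, the beta chain of the IgE receptor, are made by both. GATA2 is a transcription factor that both lineages depend on, and it binds DNA at a GATA core.

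The sequences just upstream of the 4 genes that chose the cells, and of the mast cell chymase Mcpt4, are shown because these genes mark the 2 lineages. Each is the RefSeq sequence on GRCm38.p6 that ends at the base before the start of the gene, written 5′ to 3′ on the strand of the gene, with GATAA or its reverse complement TTATC in capitals.
Mcpt8 (chr14:56085274-56085447, minus strand): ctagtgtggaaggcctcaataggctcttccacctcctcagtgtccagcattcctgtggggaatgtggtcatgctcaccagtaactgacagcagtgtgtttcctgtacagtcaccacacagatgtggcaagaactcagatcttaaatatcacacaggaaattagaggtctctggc
Prss34 (chr17:25298144-25298393, plus strand): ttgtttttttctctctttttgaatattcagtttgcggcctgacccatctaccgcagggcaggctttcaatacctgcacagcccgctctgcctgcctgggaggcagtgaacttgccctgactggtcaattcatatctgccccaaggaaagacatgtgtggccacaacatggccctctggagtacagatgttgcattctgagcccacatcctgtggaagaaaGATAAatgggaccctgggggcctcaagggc
Cpa3 (chr3:20242182-20242431, minus strand): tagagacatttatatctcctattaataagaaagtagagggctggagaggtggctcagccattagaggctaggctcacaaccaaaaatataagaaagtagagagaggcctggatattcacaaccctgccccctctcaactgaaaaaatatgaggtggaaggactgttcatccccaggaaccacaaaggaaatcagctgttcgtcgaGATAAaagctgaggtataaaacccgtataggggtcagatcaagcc
Ms4a2 (chr19:11623720-11623969, minus strand): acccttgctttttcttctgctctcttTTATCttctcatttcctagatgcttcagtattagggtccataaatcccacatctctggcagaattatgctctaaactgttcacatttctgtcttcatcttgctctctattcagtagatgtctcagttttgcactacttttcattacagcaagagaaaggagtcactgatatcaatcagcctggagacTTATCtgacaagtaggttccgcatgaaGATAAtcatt
Mcpt4 (chr14:56062314-56062560, minus strand): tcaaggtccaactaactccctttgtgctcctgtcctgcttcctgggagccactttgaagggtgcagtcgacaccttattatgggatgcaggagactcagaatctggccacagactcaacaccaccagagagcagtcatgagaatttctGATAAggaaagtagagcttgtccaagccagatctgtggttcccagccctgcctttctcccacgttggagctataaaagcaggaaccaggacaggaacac
The motif was searched on both strands. It was found 3 times upstream of Ms4a2, 1 time each upstream of Prss34, Cpa3 and Mcpt4, and not in the 174 bases shown for Mcpt8, which says only that these letters were not in that window. For comparison, 7418 of 32851 promoters of 250 bases held it (22.6%). Of 27 marker genes of basophils and mast cells, 24 had a promoter entry and 12 of those held the motif in at least 1 entry. A gene can have more than 1 entry, so this count is not comparable with the share of single promoters. A match in the sequence is a description and not a bound site. On GRCm38, in the GENCODE M21 annotation, Mcpt8 lies at chr14:56082166-56085273 (minus strand), close to Mcpt4 at chr14:56059629-56062313 (minus strand), while Prss34 is at chr17:25298394-25300165 (plus), Cpa3 at chr3:20215620-20242181 (minus) and Ms4a2 at chr19:11615523-11623719 (minus).

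The cells fell into 3 subsets by their proteases. A cell was called mast-protease with at least 2 UMIs over Cma1, Mcpt4, Tpsb2 and Tpsab1, basophil-protease if it was not and had at least 2 over Mcpt8 and Prss34, and Cpa3/Ms4a2-only otherwise. Basophil-protease cells made up 327 of the 432 cells (75.7%), mast-protease cells 32 (7.41%) and Cpa3/Ms4a2-only cells 73 (16.9%). Since these genes chose the subsets, their levels are given as a description, without a test. Mcpt8 was detected in 99.7% of the basophil-protease cells and in 0 of the 32 mast-protease cells, and Prss34 in 43.7% and 15.6%. Ms4a2 was detected in 80.7% and 18.8%. Cpa3 was detected in 43.1% of the basophil-protease cells and in all 32 mast-protease cells. Of the 32 mast-protease cells, all had Cma1, 31 had Tpsb2 and 28 had Cma1 and Mcpt4 together, whereas only 2 of the 327 basophil-protease cells (0.612%) carried any of the 4 mast cell proteases. A UMI of Mcpt8 was seen in 0.163% of the other kept cells.

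Several genes that the rule did not use followed the same division, but not all did. Of the basophil markers, Cyp11a1 was detected in 305 of 327 basophil-protease and 24 of 32 mast-protease cells. Hdc and Il4, given below, were also detected in both subsets. Cd200r3, an activating receptor of the CD200R family on basophils, was detected in 82.6% of the basophil-protease cells, 34.4% of the mast-protease cells and 0.307% of the other kept cells. Kit, the receptor for stem cell factor, was detected in 2 of the 327 basophil-protease cells but in 21 of the 32 mast-protease cells (65.6%). Mitf, a transcription factor of mast cell and pigment cell development, was detected in 1.22% and 34.4%. Among the other kept cells, Kit was detected in 7.68% and Mitf in 9.40%. Ifitm1 was detected in 98.5% and 0%, and Cebpb, a transcription factor of basophils and other granulocytes, in 97.6% and 28.1%, against 6.1% and 46.0% of the other kept cells. Il1rl1, the receptor for the alarmin IL-33, was present in both, in 23.2% and 43.8%, and in 0.323% of the other kept cells. These genes are expressed together with the proteases in the same cells, but the subsets were also cut from counts of these cells and no test was made of the division.

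Further genes of the mast-protease cells, chosen after their values were seen, included Mrgprb1, with UMIs in 13 of 32 cells, and Mrgprb2, a receptor for basic secretagogues, in 15 of 32. Both were at 0 in the 2 other subsets. Tph1, which makes serotonin from tryptophan, was detected in 17 of 32, Rab27b, a small GTPase of granule secretion, in 22 of 32, and the heparan sulfate enzymes Hs6st2 and Ext1 in 25 and 27 of 32. The chemokine gene Ccl2 was detected in 20 of 32 mast-protease cells and in 4 of 327 basophil-protease cells, and Ccl7 in 10 of 32 and 1 of 327. Other genes, also chosen after their values were seen, were more often detected in the basophil-protease cells. Nlrp3, a sensor of the inflammasome, was detected in 272 of 327 and in 1 of 32 mast-protease cells, Acod1, which makes itaconate, in 261 and 0, and the complement receptor C5ar1 in 165 and 0. With 32 cells, a gene seen in none of them may still be present at a low level.

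Mediator genes were detected in both subsets to differing extents, and no difference between the subsets was tested. Hdc, the enzyme that makes histamine, was detected in 326 of 327 basophil-protease and 28 of 32 mast-protease cells, and in 8.32% of the other kept cells. Il4 was detected in 64.8% of the basophil-protease cells (95% exact binomial interval 59.4% to 70.0%) and 53.1% of the mast-protease cells (17 of 32, 34.7% to 70.9%), an interval that holds the basophil value, against 0.495% of the other kept cells. Il6 was detected in 82.9% (78.3% to 86.8%) of the basophil-protease cells, 1 of 32 mast-protease cells (0.0791% to 16.2%) and 2.03% of the other kept cells. Il13 was detected in 27.8% (23.0% to 33.0%) and 15.6% (5.28% to 32.8%). Tnf, an inflammatory cytokine, was detected in 42 of 327 basophil-protease and 10 of 32 mast-protease cells. At least 1 of Il4, Il13 and Il6 was found in 311 of the 327 basophil-protease cells (95.1%), and Il4 with Il6 in the same cell in 177 (54.1%). The chemokine genes Ccl3 and Ccl4 were detected in 95.4% and 97.2% of the basophil-protease cells but in 9.38% and 6.25% of the mast-protease cells, against 7.45% and 14.1% of the other kept cells. Hgf, the hepatocyte growth factor, was detected in 81.3% of the basophil-protease cells, in 0 of the 32 mast-protease cells and in 8.43% of the other kept cells. Intervals cover counting error only. The median depth was 1584 UMIs over the 432 cells, but 1613 in the basophil-protease and 977 in the mast-protease cells, and the shares of cells with a UMI were not corrected for it.

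**Figure D1:**
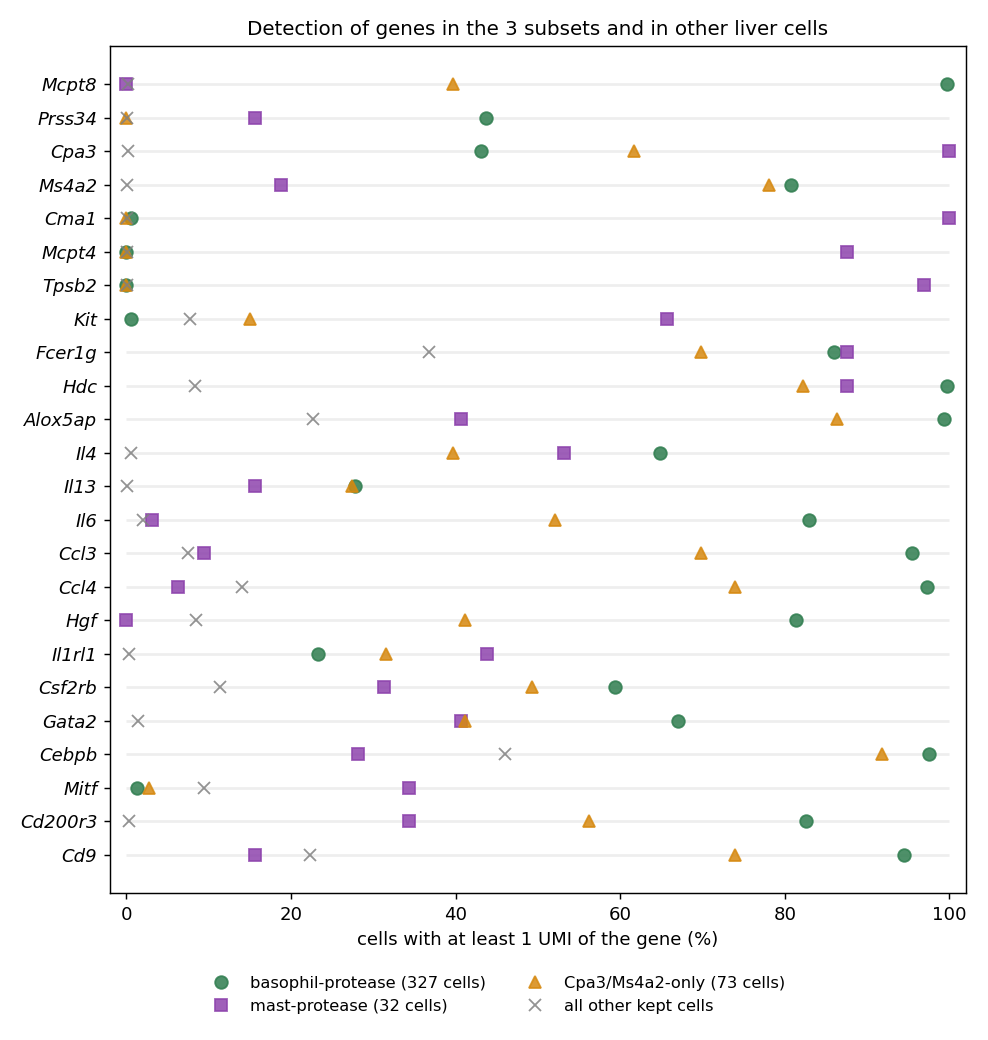
The horizontal axis gives the percentage of cells with at least 1 UMI of each gene on the vertical axis, in the 3 subsets (327, 32 and 73 cells) and in all other kept liver cells (grey crosses). Cma1, Mcpt4, Tpsb2 and Kit stand high only in the mast-protease cells among the 3 subsets, Il6, Ccl3, Ccl4 and Hgf are highest in the basophil-protease cells, and Hdc and Il4 are detected in all 3 subsets far more often than elsewhere.

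Most of the Cpa3/Ms4a2-only cells carried basophil genes, but some went against their label. Of the 73, 60 held Hdc (82.2%), 41 held Cd200r3 (56.2%), 38 held Il6 and 29 held a single UMI of Mcpt8. The 13 without Hdc, 6 from control and 7 from anemic livers, had a median of 5469 UMIs and came from 9 mice. Cpa3 was detected in 12 of these 13 and Ms4a2 in 1, while Mcpt8, Cd200r3, Gata2, Cyp11a1, Fcer1a, Il4 and Il6 were all at 0. Some lymphoid genes were detected in most of them, Tox in 12 of 13, Tcf7 in 11, the T cell receptor gene Trbc1 in 10 and Zbtb16 in 9, but Il7r in 2, and of the genes of progenitors Sox4 was detected in 10, Myb in 6 and Kit in 4. Among the 414 cells with Hdc, Tox was detected in 16, Tcf7 in 4, Trbc1 and Zbtb16 in 9 each, Il7r in 95 and Sox4 in 16. In the same 414 cells Cyp11a1 was detected in 368, Mcpt8 in 354, Cd200r3 in 321, Il6 in 310, Gata2 in 261 and Il4 in 257. Fcer1a, the alpha chain of the IgE receptor, was detected in only 62 of the 414, so its absence from 13 cells says little. These 13 cells went against the label, so results are also given below without them (419 cells) or, in the tests of genes, for the 414 cells with Hdc, which leaves out 4 more mast-protease cells of control mice and 1 basophil-protease cell of an anemic mouse. Both choices were made after the data were seen. Of 10 eosinophil genes, Epx, Prg3, Il5ra, Ear1 and Ear6 had 0 UMIs among the 920771 of the 432 cells, and a count of 0 allows up to 3. The others were detected, with Alox15 in 78 cells, Ccr3 in 19, Siglecf in 18 and Ear2 in 3, and 70 of the 78 cells with Alox15 were basophil-protease cells.

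Across mice, several genes set these cells apart from the rest of the liver. In CPM (UMIs of a gene per 1000000 UMIs of the summed cells of a mouse), the mean over 12 mice of Cyp11a1, the enzyme that turns cholesterol into pregnenolone, was 1743 in basophils and mast cells and 1.64 in the other kept cells. Cd200r3 was at 1101 and 1.54 CPM, Il4 at 896 and 2.93, Il13 at 226 and 0.379, and Il6 at 1443 and 11.4. Hdc was at 9399 and 79.5, Gata2 at 673 and 5.04, and Il1rl1 at 178 and 1.31. The mast cell proteases Mcpt4, Cma1 and Tpsb2 were at 1103, 812 and 445 CPM and below 1 CPM elsewhere. Slc18a2, which loads histamine into granules, was at 504 and 5.82, Hs3st1, a heparan sulfate sulfotransferase, at 587 and 6.36, and Aqp9, a channel for water and glycerol, at 773 and 9.92. The same set of the 20 genes with the highest ratio also held Ifitm1 (4856 and 52.9), Slc24a3, Csrp3, Gm47599, Gm49890 and E230016K23Rik. These values describe cells that were chosen on genes of the same counts and were not tested.

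The first comparison asked whether PIA changed how many of these cells the liver held. In control mice they made up 0.203% of the kept cells at the lowest, 0.260% at the median and 0.348% at the highest, and in anemic mice 0.112%, 0.167% and 0.195%. Every anemic mouse lay below every control mouse. The mean was 0.263% ± 0.0497 (SD, n = 6) in control and 0.163% ± 0.0328 in anemic mice, 38.0% lower in anemia (exact two-sided Mann-Whitney test p = 0.00216, the smallest that 6 against 6 mice can give; BH-adjusted over the 5 shares compared 0.00541). Among females, control mice ranged from 0.203% to 0.280% (4 mice) and anemic mice from 0.147% to 0.184% (2 mice). Among males, the ranges were 0.250% to 0.348% (2 mice) and 0.112% to 0.195% (4 mice). Since every anemic mouse lay below every control mouse, the groups could not overlap within a sex. The part of sex in the difference was not tested. Without the 13 cells the share fell by 0.101 percentage points in anemia (exact Mann-Whitney p = 0.00216), and with only the cells that held Hdc it fell by 0.0974 (exact p = 0.00866).

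The difference depended on what the cells were counted against. All basophils and mast cells, divided by the kept cells with under 10% globin UMIs, came to 0.215% to 0.395% in control and 0.140% to 0.289% in anemic mice, and the difference of -0.0703 percentage points did not pass the exact test (p = 0.0931). With the same limit on globin in the numerator, which 427 of the 432 cells met, the ranges were 0.215% to 0.395% and 0.140% to 0.281% (exact p = 0.0931). Divided by the kept cells with a UMI of the leukocyte gene Ptprc, whether or not they held one themselves, they came to 0.510% to 0.778% and 0.233% to 0.705%, a difference that did not pass it either (exact p = 0.0649). Only 126 of the 432 cells held a UMI of Ptprc, and these made up 0.0607% to 0.226% of the cells with Ptprc in control and 0.0628% to 0.249% in anemic mice (exact p = 0.937). The ratios with a matched numerator were added after the data were seen. The means were lower in anemia under each denominator. A share is relative to the other cells captured, so fewer of these cells and more of others cannot be told apart.

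The basophil-protease cells were a smaller share of the kept cells in anemic livers. They made up 0.164% to 0.269% of the kept cells in control mice and 0.0867% to 0.162% in anemic mice, again with no overlap. The mean was 0.205% ± 0.0382 in control and 0.118% ± 0.0303 in anemic mice, 42.6% lower (exact p = 0.00216, BH-adjusted 0.00541, n = 6 per group). Mast-protease cells were found in 5 of 6 mice of each group, with 15 in control and 17 in anemic livers. Their share was 0 to 0.0338% and 0 to 0.0325%, with means of 0.0151% and 0.0159% that were not distinguishable at this number of cells (exact p = 0.981, BH-adjusted 1). Cpa3/Ms4a2-only cells had means of 0.0431% and 0.0295% (exact p = 0.485, BH-adjusted 0.808). A change that differs between the subsets was not tested. Of all basophils and mast cells, the basophil-protease subset was 77.7% in control and 72.7% in anemic livers. The subset was not tested against the cells low in globin or the cells with Ptprc. Under those denominators the difference of all basophils and mast cells did not pass.

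**Figure D2:**
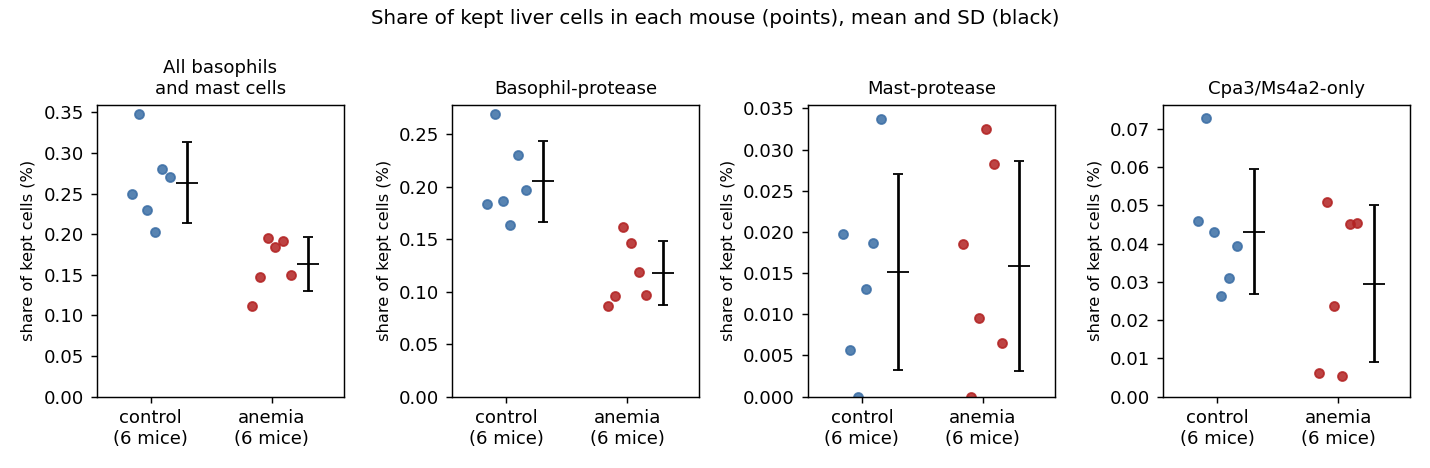
Each point is 1 mouse, the vertical axes give the percentage of kept liver cells from 0, and black bars give the mean and SD of 6 mice. For all basophils and mast cells and for the basophil-protease subset the 6 anemic mice sit below the 6 control mice, whereas the mast-protease and Cpa3/Ms4a2-only subsets overlap.

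A gate on other genes gave a lower share as well. It used Cd200r3, Cyp11a1, Gata2 and Il4 in place of the 4 genes, was chosen after the data were seen, and found 577 cells, of which 379 were shared (65.7% of the new and 87.7% of the first set), and their share differed by -0.123 percentage points in anemia (exact p = 0.00216). After every cell was thinned to 500 UMIs and gated at 2 UMIs of the 4 genes, the difference was -0.0810 percentage points (exact p = 0.0152). Thinning also lowered the counts of the exclusion genes, so the gate then took a different set of cells at equal depth, such as 24 cells against 18 in anemic mouse 1. Granulocyte progenitors, taken by a simple gate on Elane, Mpo and Prtn3, made up 0.214% to 0.524% of kept cells (median 0.377%) in control mice and 0.400% to 0.990% (median 0.624%) in anemic mice, a difference that was not tested.

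The doublet caller Scrublet treated the cells of the 2 groups unequally. It called 11.3% to 17.1% of the kept cells of a mouse, and 10.5% to 20.8% of the basophils and mast cells of a control mouse, but 34.8% to 100% of those of an anemic mouse. Without the called cells, the share was 0.195% to 0.347% in control and 0 to 0.112% in anemic mice (exact p = 0.00216). The cells were kept in all other results, and the part of doublets in the results on genes was not tested, since 2 anemic mice then had no such cell.

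The fraction of cycling cells was measured over a list of 30 cell cycle genes after thinning to 1000 UMIs, which 226 control and 165 anemic cells reached. At least 2 UMIs of the list were found in 17.7% ± 6.96 (SD, n = 6) of these cells in control and in 18.3% ± 3.47 in anemic mice (exact p = 1). Among the 7 tested cell cycle genes, 0 were called, 3 had a positive and 4 a negative log2 fold change, and the median was -0.28. The proliferation gene Mki67 ranged from 33.0 to 199 CPM in control and from 28.4 to 157 CPM in anemic mice.

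The second comparison asked which genes differed in these cells. UMIs were summed over the basophils and mast cells of each mouse, and the 2401 genes that averaged 5 or more UMIs per mouse entered edgeR's quasi-likelihood test, with BH adjustment over all of them and a threshold of 0.05. The genes of the gate, whose levels the rule sets, were left out. Of the 2401 genes, 6 were called (0.25%), 4 higher (0.167%) and 2 lower (0.0833%) in anemia. In the other kept cells of the same livers, 167 of the same genes were called (6.96%), at a far greater number of UMIs. At an unadjusted p under 0.05 there were 191 genes in the basophils and mast cells (7.96%). The count rested on single mice: it was 0 without control mouse 1 (with 166 at an unadjusted p under 0.05), 1 without control mouse 3, 10 without anemic mouse 4 and 16 without anemic mouse 6. With the 414 cells that held Hdc, 14 of 2163 tested genes were called, 8 higher and 6 lower, among them all 6. In summed cells, fewer cells that carry a gene and less RNA per cell cannot be told apart.

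Gcnt2 and the long noncoding RNA gene Gm12840 were the 2 genes that fell. Gcnt2 encodes the branching enzyme of the I blood group antigen and lies at chr13:40859754-40960892 (plus strand, GRCm38), where the annotation holds 6 overlapping genes, 5 of them on the other strand. In control mice it was at 303 CPM at the lowest, 467 at the median and 759 at the highest, and in anemic mice at 71.1, 189 and 230. The groups did not overlap. The means were 475 ± 158 and 173 ± 62.4 CPM (SD, n = 6), a log2 fold change of -1.40 (SE 0.27, edgeR adjusted p = 0.0252). Gcnt2 was detected in 145 cells, 97 control and 48 anemic, among them 112 of 327 basophil-protease and 33 of 73 Cpa3/Ms4a2-only cells but 0 of 32 mast-protease cells. In control mouse 1, 1 Cpa3/Ms4a2-only cell held 18 of that mouse's 46 UMIs. The call was lost without control mouse 1 (edgeR adjusted p = 0.0897) or 3 (0.0644) and with a gate of 5 UMIs. It was also lost in the basophil-protease cells alone, where the log2 fold change was -1.06 (adjusted p = 0.0683).

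Gm12840, at chr4:117700188-117700923 (plus strand, GRCm38), overlaps no other annotated gene. It was at 103, 147 and 363 CPM (lowest, median and highest) in control and at 0, 26.5 and 72.3 CPM in anemic mice. All anemic mice lay below all controls, with 181 ± 96.3 and 26.5 ± 26.9 CPM (log2 fold change -2.50, SE 0.50, edgeR adjusted p = 0.0269). These values rest on few molecules, 93 UMIs in 38 cells, 30 control and 8 anemic. In control mouse 3, 1 basophil-protease cell held 11 of that mouse's 13 UMIs, so the lack of overlap rests on that cell. The mean over 12 mice was 103.5 CPM, against 68.9 CPM in the other kept cells, with 7 of 12 mice above them. The edgeR adjusted p was between 0.0572 and 0.0897 without control mouse 1 or 3 or without anemic mouse 1, 3 or 5. Gm12840 was also not called by voom or with a sex term, and DESeq2 gave it no adjusted p.

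In the other kept cells neither gene moved in that direction. The log2 fold change there was 0.31 for Gcnt2 and 0.33 for Gm12840. The difference between the change in basophils and mast cells and that in the other cells of the same mouse, tested in 1 model with the mouse as a block, was -1.76 for Gcnt2 (edgeR adjusted p = 0.00899) and -2.92 for Gm12840 (adjusted p = 0.0136). Over all 2401 genes, 5 were called in this test (0.208%), and 8 to 11 without control mouse 3 (8) or anemic mouse 1 (11), 4 (9) or 5 (9). Gcnt2 and Gm12840 were called in it whichever of the 12 mice was left out.

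The other 3 of these 5 genes were St6galnac3, Ccl9 and Gsn. St6galnac3, a sialyltransferase gene at chr3:153198266-153725174 (minus strand, GRCm38) with 7 overlapping annotated genes, 3 on the other strand, was at 234, 293 and 607 CPM in control and 418, 775 and 1180 CPM in anemic mice, and 4 anemic mice lay above every control. Its log2 difference from the change in the other cells was 1.42 (edgeR adjusted p = 0.00899), made of 1.17 in basophils and mast cells, which did not pass on its own (adjusted p = 0.102), and -0.23 in the others. Ccl9, a chemokine of the CC family at chr11:83572919-83578636 (minus strand), was at 642, 741 and 1105 CPM in control and 356, 497 and 725 CPM in anemic mice. Its change of -0.61 did not pass (edgeR adjusted p = 0.351), but in the other kept cells Ccl9 was higher in anemia (log2 fold change 1.25, adjusted p = 0.00122), and the difference was -1.89 (adjusted p = 0.000532).

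Gsn, the actin-severing protein gelsolin at chr2:35256380-35307892 (plus strand, 1 overlapping gene), was at 238, 329 and 407 CPM in control and 120, 179 and 262 CPM in anemic mice. Its log2 fold change was -0.75 (edgeR adjusted p = 0.246) against 0.70 in the other cells, a difference of -1.51 (adjusted p = 0.0136). That difference was no longer called without TMM scaling (-1.23, adjusted p = 0.0520), without control mouse 1 (adjusted p = 0.0516) or without control mouse 2 (0.0818). Against the granulocyte progenitors with Elane, Mpo and Prtn3, the same kind of test with edgeR called 0 of the 2401 genes, with 151 at an unadjusted p under 0.05, and 1 gene without anemic mouse 3.

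**Figure D3:**
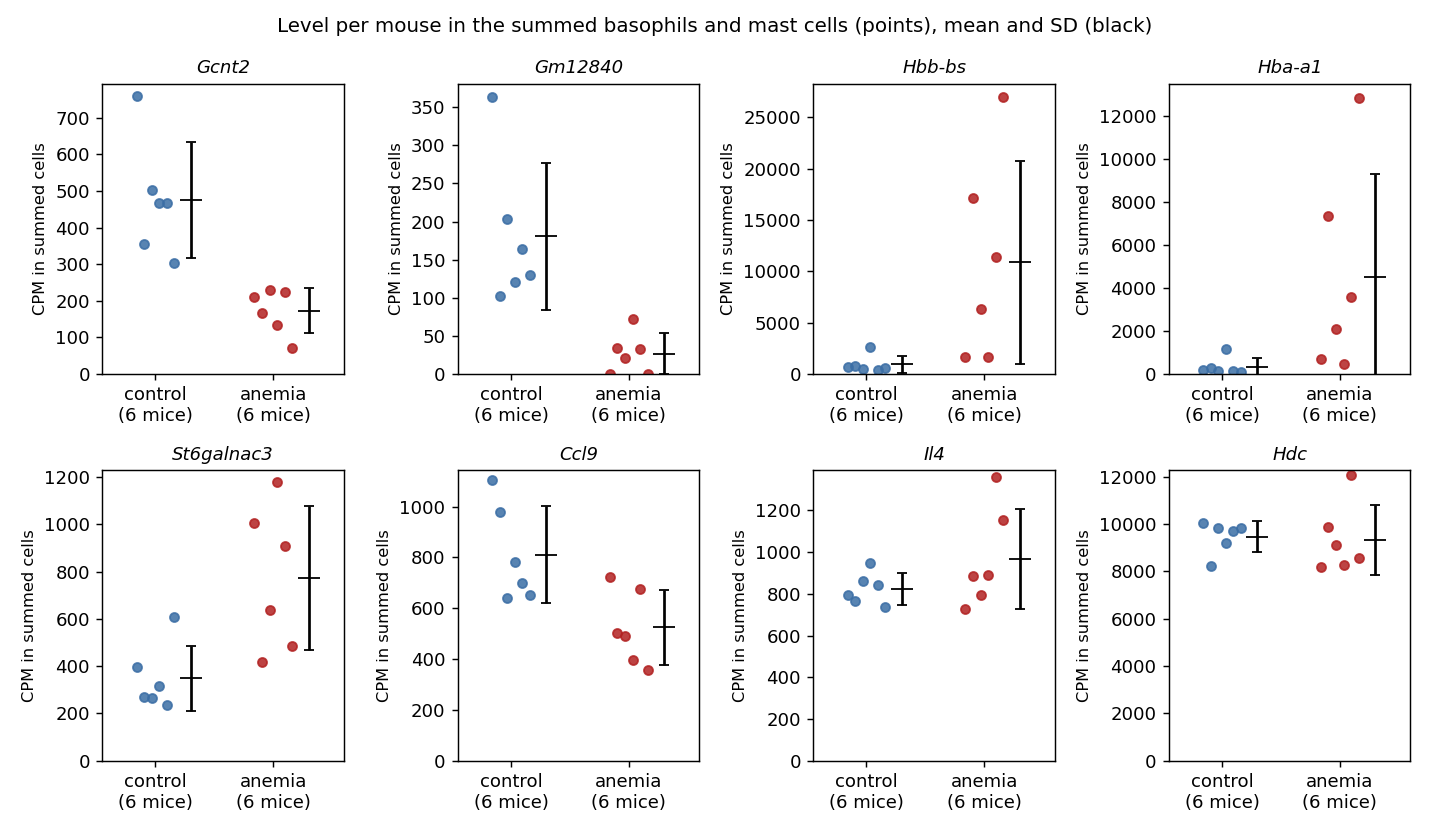
Each point is 1 mouse, the vertical axes give CPM in the summed basophils and mast cells from 0, and black bars give the mean and SD of 6 mice (the lower end of a bar is cut at 0 where it would be negative). Gcnt2 and Gm12840 do not overlap between groups, 4 anemic mice are above every control for Hbb-bs, Hba-a1 and St6galnac3, and Il4 and Hdc overlap.

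The 4 genes that rose were the adult globin genes Hbb-bs, Hba-a1, Hba-a2 and Hbb-bt, which red cell precursors express. Hbb-bs was at 409, 626 and 2586 CPM in control and 1660, 8887 and 26937 CPM in anemic mice, with 4 anemic mice above every control (log2 fold change 3.62, SE 0.61, edgeR adjusted p = 0.0158). The log2 fold changes of Hba-a1, Hba-a2 and Hbb-bt were 3.85, 3.74 and 3.68 (adjusted p = 0.0252, 0.0158 and 0.0252). Hbb-bs and Hba-a2 lost the call without control mouse 1 (edgeR adjusted p = 0.0897 for both) or 3 (0.0561 for both), Hba-a1 also without control mouse 2 or 6, and Hbb-bt also without control mouse 2, 5 or 6. Hbb-bt was not called by voom (adjusted p = 0.117) or with a sex term (edgeR adjusted p = 0.0641). In the anemic mouse with the highest value, number 6, 1 Cpa3/Ms4a2-only cell held 1219 of 1894 Hbb-bs UMIs. The alpha genes are near-identical copies of each other, as are the beta genes, so the split of reads within each pair is uncertain. In the other kept cells Hbb-bs had a mean of 34106 CPM and a log2 fold change of 2.26, and the difference between the changes was not called (edgeR adjusted p = 0.784). The summed list of 14 erythroid genes was at 736 to 4917 CPM in control and 2975 to 51413 CPM in anemic mice, and 2 of its genes, Klf1 and Epb42, had 0 UMIs in the basophils and mast cells.

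RNA of other cell types was read in the same sums. The 11 tested hepatocyte genes all had a negative log2 fold change, with a median of -1.12 against 0.08 for the same genes in the other kept cells, and 0 were called. Under alternatives some were called lower. Without a filter on low counts edgeR called Ttr, Apoa1, Alb, Ahsg, Apoa2, Serpina1a, Rbp4 and Cyp2e1, and without anemic mouse 6 Apoa1, Ttr, Ahsg, Alb, Apoa2 and Fgg, which were 6 of 8 lower genes. In the basophil-protease subset Ttr, Apoa1, Serpina1a, Alb, Ahsg and Apoa2 were called, also 6 of 8. Apoa1, Alb and Apoa2 were called by DESeq2, Apoa1 and Ttr by voom, Apoa2, Ttr and Apoa1 with a gate of 5 UMIs, Apoa1, Ttr and Alb with the 414 cells that held Hdc or with the replicate block, and Apoa1 alone with a sex term or among the genes with a mean of 20 UMIs. The 16 hepatocyte genes summed to 4676 to 10411 CPM in control and 1403 to 6485 CPM in anemic basophils and mast cells, and to medians of 14429 and 13583 CPM in the other cells. Albumin, Alb, was at 803, 1076 and 1765 CPM in control and 150, 464 and 868 CPM in anemic mice (edgeR adjusted p = 0.111). The 5 tested neutrophil genes had positive changes with a median of 4.21, and 0 were called. Of the 625 UMIs of S100a8, a calcium-binding protein of neutrophils, 565 (90.4%) came from 1 Cpa3/Ms4a2-only cell of anemic mouse 3, which also held 438 of the 535 UMIs of S100a9, the gene at the median. S100a9 was called higher by DESeq2, S100a8 without anemic mouse 4, and both without anemic mouse 6. Without a filter on low counts edgeR called S100a8, S100a9, Ngp, Camp, Ltf, Chil3, Retnlg and Lcn2 higher. Among cells with under 0.5% globin and no Alb UMI, 584 genes were left to test. There the log2 fold change of Gcnt2 was -1.43 and it was not called (edgeR adjusted p = 0.162), and Gm12840 had too few UMIs to test. The part of RNA from other cells in these changes was not tested.

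Lists of the other cell types gave few tested genes and no call among the 2401 genes. Without a filter on low counts edgeR called Lyz2 and Sox4 of these lists higher, and Dcn, Reln, Cd74 and Gzma lower. The log2 fold changes were 1 positive and 1 negative for monocytes and macrophages (median 0.82), 1 negative for eosinophils (-0.28), 1 positive for megakaryocytes (0.68), 1 positive and 2 negative for lymphoid genes (-0.17), 2 negative for dendritic cells (-0.60) and 1 negative for endothelial and stellate cells (-0.53). Of 5 stem and progenitor genes, 4 were positive and 1 negative (median 0.69), among them Kit, at 0 to 164 CPM in control and 66.8 to 182 CPM in anemic mice (edgeR adjusted p = 0.582). The summed lymphoid list was at 520 to 1459 CPM and 374 to 921 CPM, with Cd79a and Cd3e at 0 by the rule.

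The genes that carry the functions of basophils and mast cells did not pass the test over the 2401 genes, and the medians of their lists ranged from -0.12 to 0.21, where that of all tested genes was 0.02, with no test between them. In the list of granule proteases and granule matrix, 10 genes were tested, 5 had a positive and 5 a negative log2 fold change, and the median was -0.02. Srgn, the proteoglycan core that holds the proteases, was at 4021 to 5247 CPM in control and 3826 to 6267 CPM in anemic mice. Mcpt4 was at 0 to 3002 CPM and 0 to 1361 CPM, and Cma1 at 0 to 1226 CPM and 0 to 2362 CPM, with 0 to 6 mast-protease cells in each mouse. For Mcpt4 the log2 fold change was -0.89 (edgeR adjusted p = 0.907). Without a filter on low counts edgeR called Mcpt4 lower and another mast cell protease gene, Mcpt2, which was detected in 6 cells, higher in anemia, and no other gene of the lists of basophil and mast cell function. Rab27b, the GTPase of granule secretion named above, was in none of the lists. It was called higher by edgeR without that filter, with a gate of 5 UMIs, with the cells that held Hdc and without anemic mouse 2. With all 12 mice and all cells it was not called among the 2401 genes.

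For the IgE receptor and its signalling, 13 genes were tested, 8 positive and 5 negative, with a median of 0.19. Fcer1g, the gamma chain of the receptor, was at 1086, 1267 and 1382 CPM in control and 654, 1084 and 1403 CPM in anemic mice (edgeR adjusted p = 0.908). The adaptor Gab2 was at 392 to 756 CPM and 551 to 878 CPM (adjusted p = 0.582). For histamine and lipid mediators, 6 genes were tested, 2 positive and 4 negative, with a median of -0.06. Hdc was at 8236, 9764 and 10032 CPM in control and 8161, 8838 and 12050 CPM in anemic mice, and the groups overlapped throughout (edgeR adjusted p = 0.995). In the other kept cells the same 6 genes had a median of 1.04. Alox5ap, which presents arachidonic acid to the enzyme of leukotriene synthesis, was at 3728 to 4554 CPM and 2802 to 4858 CPM (adjusted p = 0.993).

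Of the cytokines and chemokines, 14 genes were tested, 4 positive and 10 negative, with a median of -0.12 and none called. Il4, the type 2 cytokine, was at 737, 816 and 947 CPM in control and 725, 888 and 1360 CPM in anemic mice (edgeR adjusted p = 0.791). Il6, an acute phase cytokine, was at 1254, 1390 and 2045 CPM and 927, 1315 and 2058 CPM (adjusted p = 0.994), and Il13 at 157, 228 and 361 CPM and 136, 211 and 284 CPM (adjusted p = 0.944). The groups overlapped for each of the 3. Ccl4 was at 8648 to 11270 CPM and 6699 to 12136 CPM, and Ccl3 at 3208 to 4292 CPM and 2546 to 4060 CPM. A p above the threshold does not show that the levels were equal.

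For cytokine and growth factor receptors, 13 genes were tested, 11 positive and 2 negative, with a median of 0.10. The receptor chains Csf2rb, shared by IL-3 and GM-CSF, and Il18rap, for IL-18, were at 271 to 721 CPM and 282 to 476 CPM in control and at 370 to 678 CPM and 327 to 482 CPM in anemic mice. For lineage transcription factors, 10 genes were tested, 6 positive and 4 negative, with a median of 0.21. Gata2 was at 345, 644 and 829 CPM in control and 484, 744 and 865 CPM in anemic mice (edgeR adjusted p = 0.856), and Cebpb at 3772, 4770 and 6699 CPM and 2817, 4354 and 5078 CPM (adjusted p = 0.834). Ikzf2, a factor of the Ikaros family, was at 245, 317 and 556 CPM and 368, 557 and 900 CPM (adjusted p = 0.442). Of 16 surface and trafficking receptors, 8 were positive and 8 negative (median -0.03). Cd200r3 was at 857, 1185 and 1369 CPM and 583, 923 and 1684 CPM (adjusted p = 0.970).

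The tetraspanin gene Cd9 was at 1635, 1751 and 2277 CPM in control and 882, 1218 and 1613 CPM in anemic mice, with no overlap, but it did not pass (edgeR adjusted p = 0.260). In all, the groups did not overlap in 13 of the 2401 genes (0.541%), 6 higher in anemia (0.25%) and 7 lower (0.292%). The lower ones were Gcnt2, Gm12840, Cd9, Sod2, Phf20l1, Actg1 and Tyrobp, and the higher ones Tbc1d5, Lmo4, Kcnq5, Lrmda, Dusp16 and Rfc2. They were chosen by their values and, apart from Gcnt2 and Gm12840, were not called by edgeR over the 2401 genes. DESeq2 called Cd9 lower and Lmo4, Kcnq5, Lrmda and Tbc1d5 higher, and among the 540 genes with a mean of 20 UMIs edgeR called Sod2 lower and Dusp16, Lmo4, Kcnq5 and Lrmda higher. Kcnq5 was also called in the basophil-protease subset.

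Genes of the response to low oxygen, iron and stress were also read in these cells. For hypoxia and glycolysis, 16 genes were tested, 12 positive and 4 negative, with a median of 0.25 and none called, while in the other kept cells the same genes had a median of 0.80. Ero1l, a thiol oxidase of the endoplasmic reticulum, was at 222 to 596 CPM in control and 444 to 996 CPM in anemic mice (edgeR adjusted p = 0.523), and Gapdh at 1083 to 1598 CPM and 1336 to 1698 CPM (adjusted p = 0.717). Of iron, heme and metallothionein genes 2 were tested, 1 positive and 1 negative (median -0.15). The metallothionein gene Mt1, with too few UMIs to test, was at 0, 30.5 and 45.1 CPM in control and 52.4, 82.9 and 213 CPM in anemic mice, so that all 6 anemic mice lay above all controls on 14 and 44 UMIs. Its mean was 64.9 CPM in basophils and mast cells but 324 CPM in the other kept cells. For the interferon response, 4 genes were tested, 3 positive and 1 negative (median 0.43). For survival and death 7 were tested, 2 positive and 5 negative (median -0.36), and for immediate early and heat shock genes 15, 7 positive and 8 negative (median -0.00). No gene of these lists was called among the 2401 genes, and without a filter on low counts the interferon-induced Gbp2 was called higher.

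**Figure D4:**
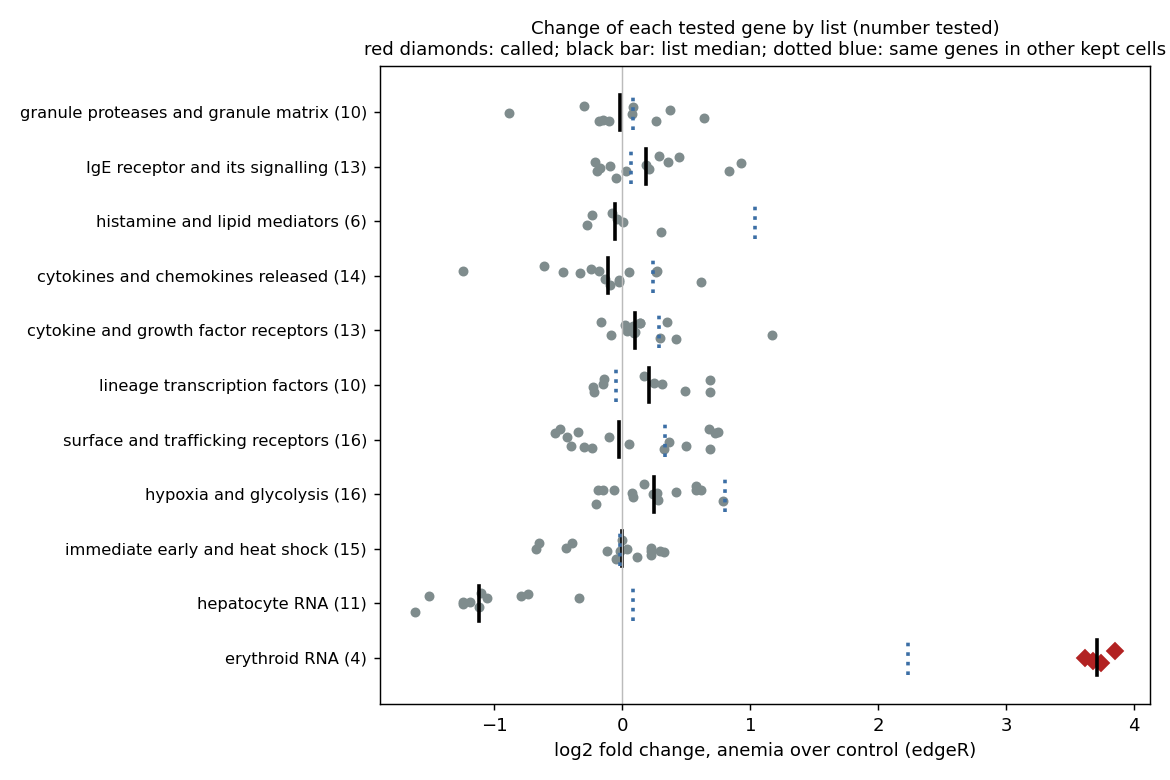
Each point is 1 tested gene, placed by its log2 fold change in basophils and mast cells (anemia over control, horizontal axis) and grouped by list, with red diamonds for called genes, a black bar for the list median and a dotted blue bar for the median of the same genes in the other kept cells. The 4 globin genes are the only genes of the lists called among the 2401 tested, and the medians of the lists of basophil and mast cell function lie between -0.12 and 0.21.

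Several genes did not pass the main test but were called under some alternatives. Angpt1, the ligand of the Tie2 receptor, was at 45.1, 81.8 and 175 CPM in control and 108, 259 and 386 CPM in anemic mice, with 5 anemic mice above every control (log2 fold change 1.51, edgeR adjusted p = 0.0681). The chemokine gene Ccl5 was at 15.7, 558 and 2120 CPM and 0, 59.5 and 168 CPM (log2 fold change -3.23, adjusted p = 0.0581), and 2 anemic mice lay below every control. Ccl5 was detected in 23 control and 18 anemic cells, and in control mouse 6 a single Cpa3/Ms4a2-only cell held 87 of 89 UMIs. The apolipoprotein gene Apoa1, a hepatocyte product, and the cyclin family gene Ccni had log2 fold changes of -1.62 (adjusted p = 0.0681) and -1.03 (adjusted p = 0.102), each with 5 anemic mice below every control. With the cells that held Hdc, St6galnac3, Angpt1, Apoa1 and Ccni were called (edgeR adjusted p = 0.0264, 0.0394, 0.0154 and 0.0464). With all 12 mice and all cells, DESeq2 called St6galnac3, Apoa1, Ccni and Ccl5, voom called Apoa1 and Ccni, and edgeR called St6galnac3, Ccl5, Ccni and Apoa1 among the 540 genes with a mean of 20 UMIs, Apoa1 with a sex term, and all 5 without a filter on low counts (14834 genes). With a gate of 5 UMIs St6galnac3, Ccl5, Apoa1 and Ccni were called, and in the basophil-protease subset St6galnac3, Apoa1 and Ccni. With the replicate number as a block, which the numbers do not warrant as a pairing, edgeR called Angpt1 and Apoa1. Each of the 5 genes also passed by edgeR when particular mice were left out, St6galnac3 without control mouse 6 (0.0393) or anemic mouse 2 (0.0457) or 6 (0.0401), Angpt1 without control mouse 5 (0.0428) or anemic mouse 4 (0.00996), Ccl5 without control mouse 3 (0.0251) or 5 (0.0428) or anemic mouse 3 (0.0370), Apoa1 without anemic mouse 6 (0.00193) and Ccni without anemic mouse 4 (0.00911). Mpp7, chosen after its calls were seen, was not called in the main test but was called higher by DESeq2 and by voom. It was also called by edgeR among the genes with a mean of 20 UMIs, without a filter on low counts and with the cells that held Hdc. Leaving out control mouse 5 or anemic mouse 5 gave that call as well. The genes of the gate, given without a test, were at 3684 to 6424 and 3207 to 7744 CPM for Mcpt8, 1237 to 4120 and 1361 to 5865 CPM for Prss34, 548 to 934 and 601 to 1409 CPM for Cpa3, and 692 to 1139 and 811 to 1186 CPM for Ms4a2, in control and anemic mice.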

How the data were processed

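Single-cell RNA was measured in the livers of 12 mice, 6 per group, with 1 library per mouse. The authors deposited raw UMI counts per gene and cell barcode, with no normalisation. The file headers name software version 7.0.0 of the 10x Genomics pipeline, and the submitters' processing notes name Cell Ranger, Seurat and the build mm10. Whether intronic reads were counted is not given in the sources used here, and the label and the methods name different kit versions. Libraries held 207537 barcodes, of which 202557 were kept (500 to 50000 UMIs, at most 20% mitochondrial). The rule, the gene lists and the tests were chosen with earlier results of these data known.

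Shares were compared by Mann-Whitney tests, exact and two-sided, over all assignments of 12 mice. Genes were tested on UMIs summed per mouse with edgeR 4.0.16 (glmQLFit and glmQLFTest, TMM) in R 4.3.3, for genes that averaged 5 or more UMIs per mouse, without mitochondrial, ribosomal protein and gate genes, BH-adjusted over all 2401 genes. Differences between cell groups were tested as an interaction with the mouse as a block. Depth limits the precision: the summed cells held 42766 to 107095 UMIs per mouse. Alternatives were DESeq2 1.42.0, limma 3.58.1 voom with quality weights, no TMM factors, filters of none or 20 UMIs, other gates and denominators, doublets left out (Scrublet in scanpy 1.11.5, 0.8% per 1000 barcodes), a sex term, the replicate number as a block and each mouse left out. Python 3.11.15, numpy 2.4.6, scipy 1.17.1, pandas 2.3.3 and matplotlib 3.10.9 were used. The scripts were tested on simulated data. Coordinates were taken from GENCODE M21 (GRCm38), to which 32158 of 32285 features matched by identifier.

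Named genes were the 13 genes of the rule, of each list the up to 4 with the highest mean CPM and every called gene, the up to 10 called genes in each direction with the largest change at 20 CPM or more, with the 5 lowest p-values where fewer than 5 were called, the 20 genes with the highest ratio to the other kept cells at 100 CPM or more, up to 5 called genes per interaction test and direction, and Xist with the Y-linked genes. Other genes are named in the report as chosen after their values were seen, or as examples of the lists.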

Additional observations from a re-analysis of the deposited data

Results flagged for a closer look

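Levels per mouse were searched for a mouse far from the other 5 of its group by Dixon's criterion, over 28 measures in both groups. It was met in 5 of 56 groups, and chance gives about 1 in 20 (5%). In control mouse 4 the globin genes stood apart, with 1143 CPM of Hba-a1, 316 CPM of Hbb-bt and 2586 CPM of Hbb-bs in its basophils and mast cells, where the other controls had 108 to 289, 16.5 to 56.0 and 409 to 756 CPM. In control mouse 2, Il6 was at 2045 CPM and in the other controls at 1254 to 1441 CPM. In anemic mouse 3, S100a8 was at 5958 CPM and in the other anemic mice at 0 to 407 CPM, and 1 cell held 565 of its 625 UMIs in all mice.

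The change with anemia differed between basophils and mast cells and the other kept cells, by edgeR's quasi-likelihood test of the difference, in 5 genes. The log2 difference was 1.42 for St6galnac3, -1.89 for Ccl9, -1.76 for Gcnt2, -2.92 for Gm12840 and -1.51 for Gsn. The cause of none of these was tested.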

How the results depend on the processing

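The share of basophils and mast cells was lower in anemia under each alternative, and passed the exact test in all but those with another denominator: the difference of all these cells was -0.0703 percentage points against cells low in globin and -0.191 against cells with Ptprc, and -0.0768 and -0.00948 with a matched numerator. Its value without called doublets follows the unequal calling and is no support. Leaving out 1 mouse gave -0.112 to -0.0833 (-0.0961 to -0.0745 for the basophil-protease subset). Taken as a share of all basophils and mast cells, the difference was -5.94 percentage points for the basophil-protease subset (not past the test) and 2.09 for the Cpa3/Ms4a2-only subset, which was negative as a share of kept cells (-0.0179 to -0.00767 leaving out 1 mouse). The small differences of the mast-protease share (-0.00258 to 0.00446 leaving out 1 mouse, negative without control mouse 2 or 3 at -0.00117 and -0.00229 and without anemic mouse 4 or 5 at -0.00258 and -0.00172) and of cycling cells (-1.66 to 2.12, negative without control mouse 1 or 4 at -1.66 and -0.328 and without anemic mouse 1 or 6 at -0.503 and -0.145, and -10.2 after thinning to 2000 UMIs or -1.97 with 1 UMI of the list) changed sign without passing a test.

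The number of called genes, 6 with 4 higher and 2 lower, was 20 (13 and 7) by DESeq2 and 65 (37 and 28) of 14834 without a filter. It was 16 (11 and 5) of 540 at a mean of 20 UMIs and 13 (7 and 6) of 1874 with a gate of 5 UMIs. The basophil-protease subset gave 14 (6 and 8) of 1661, and the cells with Hdc gave 14 (8 and 6) of 2163. In cells low in globin and without Alb it was 1 (1 and 0) of 584. That gene, Aff3, named after its call was seen, was detected in 13 of 13 Cpa3/Ms4a2-only cells without Hdc and in 25 of 414 cells with Hdc. By voom the number of called genes was 8, with 4 lower, among them Gcnt2 but not Gm12840. Leaving out 1 mouse gave 0 to 16 (0 to 8 higher, 0 to 8 lower), and 4 to 11 and 0 to 1 in the tests of the difference from other kept cells and from progenitors. With the replicate block, 11 genes were called (6 and 5), among them all 6, and the share differed with an exact signed-rank p of 0.0313. Equal numbers did not visibly deviate together (r of -0.175 to 0.0980, and 2 of 6 control mice closest to their own number). So few mice cannot exclude a pairing by number. DESeq2 gave Gm12840 no adjusted p (NA), and it was not called by voom (adjusted p = 0.546) or with a sex term (0.0547), and Gcnt2 was not called with a gate of 5 UMIs (0.198). Genes without the called doublets were not tested. The causes were not tested.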

Other observations

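Some genes of basophil-protease cells that no list held were seen in few or no mast-protease cells, and are named after their values were seen. Il1b, the inflammasome cytokine, was detected in 65 of 327 basophil-protease cells, 0 of 32 mast-protease cells and 16 of 73 Cpa3/Ms4a2-only cells. Pglyrp1, a peptidoglycan-binding protein of granulocytes, was detected in 180, 0 and 18 of them, and Il15, a cytokine of lymphocyte survival, in 139, 0 and 17. Serpinb2, an inhibitor of plasminogen activators, was detected in 76, 0 and 4. Aqp9 was detected in 240 basophil-protease cells, 0 mast-protease cells and 41 Cpa3/Ms4a2-only cells, whereas Cyp11a1 was detected in 305, 24 and 42. St6galnac3 was detected in 149 of 327 basophil-protease, 22 of 32 mast-protease and 24 of 73 Cpa3/Ms4a2-only cells, and Angpt1 in 49, 2 and 20 of them. These counts are a description over cells of all 12 mice, and no test was made.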
